A study of Mus musculus with 6 samples.

Results

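The SR proteins and the heterogeneous nuclear ribonucleoproteins (hnRNPs) were followed in RNA-seq of mouse retinal ganglion cells (RGCs), the neurons whose axons form the optic nerve. Members were all rows of the gene table whose symbol starts with Srsf and a digit, or with Hnrnp or its older spelling Hnrp. They came to 31 of 24060 genes, 11 SR genes and 20 hnRNP genes. Groups were 3 samples at embryonic day 18 (E18; replicates 1, 3 and 4) and 3 at postnatal day 5 (P5; replicates 6, 8 and 9), all from C57BL/6 mice, with no treatment or transgene named in the labels. In both groups, retinas were dissociated with papain, macrophages were removed with antibodies and RGCs were captured on antibodies against CD90, which is the product of Thy1. The labels do not say whether replicates came from separate animals or litters, so that p-values measure the spread between these samples, which may be technical.

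Total counts on genes ran from 81213639 to 114512853 per library. Libraries of 1 age differed by far more than counting noise, with a chi-square of 26 to 121 per degree of freedom over genes. The 15 RGC markers summed to 9470 to 11100 CPM (counts scaled to the same TMM-normalized total in each library) at E18 and 9610 to 10700 at P5, and 5 of them were higher at E18 and 5 lower. Thy1, on whose product the cells were captured, had a mean of 247 CPM at E18 and 553 at P5 (adjusted p = 0.00197). The 14 genes of dividing cells summed to 358, 151 and 96 CPM in E18 replicates 1, 3 and 4 and to 80.5, 92.7 and 74.8 CPM at P5, with 9 of 14 higher at E18. The 12 markers of retinal progenitors summed to 665 to 974 CPM at E18 and 524 to 667 at P5, with 7 of 12 higher at E18. Pax6 carried most of that sum and was not called. It read 661, 751 and 622 CPM in E18 replicates 1, 3 and 4 and 498 to 629 CPM at P5. Of 10 amacrine markers tested, 6 were higher at E18 and 1, Calb2, lower, and Calb2 carried most of their sum, which was 872 to 959 CPM at E18 and 1160 to 1510 CPM at P5. Tfap2b, an amacrine transcription factor, read 47.5, 119 and 1.62 CPM in E18 replicates 1, 3 and 4 and 1.02 to 1.55 CPM at P5. Microglial markers reached at most 3.29 CPM in sum in any library.

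SR proteins bind short motifs in exons through RNA recognition motifs and recruit the splicing machinery through a tail rich in arginine and serine. HnRNPs coat the nascent transcript and often oppose SR proteins, hiding splice sites or looping out exons, and several of them also carry mRNA into neurites. Many SR and hnRNP genes control their own level through a poison exon, whose inclusion sends the transcript to nonsense-mediated decay. Counts per gene, as analysed here, do not separate transcripts with and without such exons.

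All 31 members passed the filter on low counts and were tested among 16449 genes. Of these, 25 were higher at E18, 1 was lower and 5 did not pass the threshold (edgeR's quasi-likelihood test with Benjamini-Hochberg adjustment over all genes tested, adjusted p under 0.05). Across all genes tested, 43.4% were called, 20.8% higher at E18 and 22.5% lower. Among SR genes 8 were higher, 1 lower and 2 not called, and among hnRNP genes 17 were higher, none lower and 3 not called. The median log2 fold change of E18 over P5 was 0.46 for SR genes and 0.52 for hnRNP genes, against 0.00473 for all genes tested. Every E18 sample lay above every P5 sample for 28 members, and below for 1, where the shares over all genes tested were 27.6% and 28.5%. In bulk samples such as these, fewer cells of a type and less RNA per cell cannot be told apart.

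**Figure D1:**
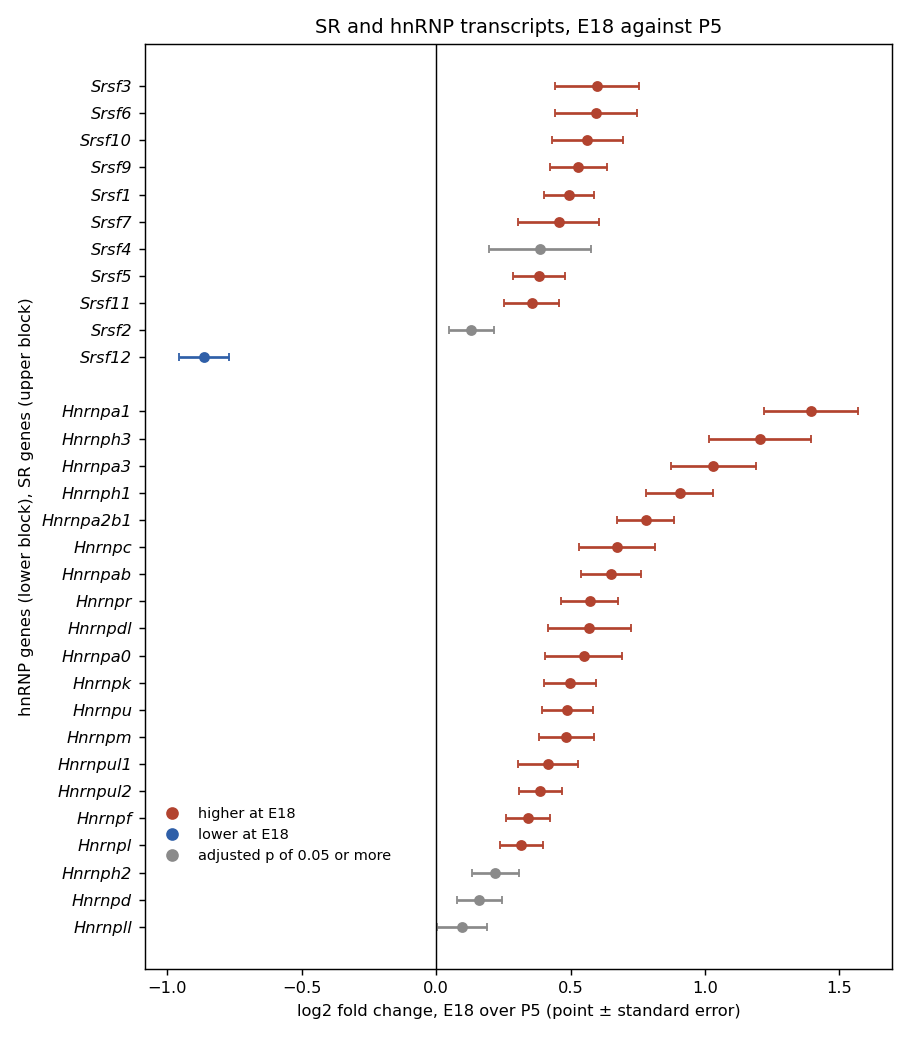
Log2 fold change of E18 over P5 for each member (horizontal axis, point with its standard error), with SR genes in the upper block and hnRNP genes in the lower block, coloured by the call at an adjusted p of 0.05. Srsf12 alone lies left of 0, at -0.86, and Hnrnpa1 lies farthest right, at 1.40.

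Promoters of Hnrnpa1 and Hnrnph1, which were higher at E18, and of Srsf5 and Hnrnpf, which hold an Ets core, are shown first, because the study asks which transcription factors act on these cells and one of them, Elk-1, belongs to the Ets family. Each line gives the 120 bases before a RefSeq start site (build GRCm38.p6), read 5′ to 3′ on the strand of the gene, and capitals mark the Ets core CCGGAAG on either strand. Hnrnpa1 lies at chr15:103240277-103240396, Hnrnph1 at chr11:50376870-50376989, Srsf5 at chr12:80945379-80945498 and Hnrnpf at chr6:117900220-117900339, all on the plus strand.
Hnrnpa1: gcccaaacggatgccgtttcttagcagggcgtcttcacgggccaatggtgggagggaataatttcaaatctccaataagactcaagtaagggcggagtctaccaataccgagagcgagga
Hnrnph1: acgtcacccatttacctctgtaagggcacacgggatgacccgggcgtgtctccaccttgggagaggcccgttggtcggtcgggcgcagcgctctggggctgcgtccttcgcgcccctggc
Srsf5: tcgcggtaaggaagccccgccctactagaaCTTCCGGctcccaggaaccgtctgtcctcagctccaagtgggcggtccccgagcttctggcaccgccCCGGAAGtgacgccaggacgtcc
Hnrnpf: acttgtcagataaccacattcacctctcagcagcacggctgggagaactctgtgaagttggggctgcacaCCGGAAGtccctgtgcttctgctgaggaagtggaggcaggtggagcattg

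In the RefSeq promoter windows, from 250 bases before to 50 after each start, 29 of 31 members were matched by symbol, with 41 start sites. The others were Hnrnpul2 and Hnrnpll. The Ets core was present, on either strand, in at least 1 window of 6 of these 29 genes (20.7%), and in 9.93% of 27025 genes with a window. Those 6 were Srsf4, Srsf5, Srsf7, Srsf11, Hnrnpd and Hnrnpf. The core of Yy1, AAGATGG, was present in Hnrnpul1 alone (3.45% of the 29, against 7.28% of all genes). Member windows were rich in G and C, with a median of 68.3% and 31 CpG dinucleotides, against 52.7% and 7 over 32851 windows. The Ets core itself holds a CpG. The shares of genes with a core were not adjusted for this content or for the number of windows per gene. Neither Hnrnpa1, which was higher at E18 by the widest margin, nor Srsf12, which was lower at E18, held an Ets core in its window. Of the 6 genes with the core, Srsf5, Srsf7, Srsf11 and Hnrnpf were called higher at E18, by 0.34 to 0.46 on the log2 scale, and Srsf4 and Hnrnpd were not called. A match of letters is a description of the window and not a bound site.

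Srsf12 was the only member that was lower at E18. It encodes a close relative of Srsf10 that counteracts other SR proteins in splicing assays. It read 61.4, 63.3 and 72.8 CPM in E18 replicates 1, 3 and 4 and 121, 120.3 and 118 CPM in P5 replicates 6, 8 and 9. All E18 samples were low and all P5 samples high, with a wide gap between the ages and a narrow spread at P5. Its means were 65.8 ± 6.15 CPM (SD, n = 3) at E18 and 119.8 ± 1.72 at P5, 1.82-fold higher at P5 (log2 fold change -0.86, SE 0.094, adjusted p = 0.000399). The gene lies on the plus strand of chromosome 4, at chr4:33208991-33233340 (mm10, GENCODE vM21), with 3 exon blocks. Its transcript shares no window of 100 bases with a transcript of any other gene. No exon of another gene overlaps its exons, among transcripts linked to RefSeq, the only ones checked. The lower level at E18 was called under each of the 14 alternative settings, and with E18 replicate 4 as the only E18 library.

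Its relative Srsf10, which represses splicing when it is dephosphorylated, moved the other way. Srsf10 read 208, 219 and 201 CPM at E18 and 158, 154 and 112 CPM at P5 (log2 fold change 0.56, SE 0.132, adjusted p = 0.0095), so that the ages did not overlap. The ratio of Srsf12 to Srsf10 counts within a library was 0.296, 0.289 and 0.363 at E18 and 0.767, 0.781 and 1.05 at P5, and every P5 library was above every E18 library. This ratio does not depend on the scaling between libraries. It restates the opposite differences of Srsf12 and Srsf10 given above.

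Among SR genes with a pair of RNA recognition motifs, Srsf1, Srsf5, Srsf6 and Srsf9 were called higher at E18 and Srsf4 was not called. Srsf1, the founding member and a regulator of splice site choice, was the most abundant SR gene in counts, with 509, 528 and 486 CPM at E18 and 365, 392 and 325 CPM at P5. The ages were clearly apart (1.41-fold, log2 fold change 0.49, SE 0.0939, adjusted p = 0.00387). Its closest relative, Srsf9, read 24.3, 26.9 and 24.8 CPM at E18 against 16.8, 19.0 and 16.8 at P5, again without overlap (log2 fold change 0.53, SE 0.107, adjusted p = 0.00499). Srsf5 read 428, 417 and 420.4 CPM at E18 and 344, 343 and 284 CPM at P5, with P5 replicate 9 lowest (log2 fold change 0.38, SE 0.0969, adjusted p = 0.0134). Srsf6, a regulator of alternative exons, differed by 0.60 on the log2 scale (SE 0.152, adjusted p = 0.0137). Srsf4 read 22.3, 14.7 and 15.8 CPM at E18 and 11.8, 16.3 and 12.2 CPM at P5, so that the ages overlapped (log2 fold change 0.39, SE 0.19, adjusted p = 0.13).

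The Srsf4 value is uncertain for another reason. Gm12992 lies on the opposite strand and covers 67.9% of the exon bases of Srsf4 (chr4:131873617-131901706, plus strand), and reads from the pair cannot be told apart without strand, whose use in counting is not stated. Counts summed over the 6 libraries were 8729 for Srsf4 and 1173 for Gm12992, which was higher at E18 (log2 fold change 0.83, adjusted p = 0.0191); that call was lost without E18 replicate 1 or 3 or P5 replicate 6 or 9, at adjusted p values of 0.0576 to 0.0707.

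Among SR genes with 1 RNA recognition motif, Srsf3, Srsf7, Srsf10 and Srsf11 were called higher at E18. Srsf3 and Srsf7 also bridge spliced mRNA to the export machinery. Srsf3 ranged from 408 to 443 CPM at E18 and from 212 to 343 at P5 (log2 fold change 0.60, SE 0.158, adjusted p = 0.0157), and Srsf7 from 222 to 244 CPM at E18 and from 128 to 199 at P5 (log2 fold change 0.46, SE 0.151, adjusted p = 0.0379). In both, P5 replicate 9 was the lowest sample. Srsf11, which acts with Srrm4 on neuronal microexons, had a log2 fold change of 0.35 (SE 0.103, adjusted p = 0.023). Srsf2, a nuclear SR protein that also promotes release of paused RNA polymerase, read 203, 184 and 192 CPM at E18 and 169, 179 and 181 CPM at P5. The E18 samples were all above the P5 samples by a small margin, and the difference did not pass the threshold (log2 fold change 0.13, SE 0.0828, adjusted p = 0.231). Of its windows of 100 bases, 30.6% were shared with Mettl23 and Mfsd11. Those genes had 25297 counts over the 6 libraries, against 104422 for Srsf2.

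The 4 hnRNP A/B genes were all called higher at E18, with a median log2 fold change of 0.91. Hnrnpa1 encodes the best known splicing silencer of the class, which competes with Srsf1 for exons. It read 30.8, 37.0 and 30.2 CPM at E18 and 12.8, 15 and 9.45 CPM at P5, and the lowest E18 sample was well above the highest P5 sample. Its means were 32.7 ± 3.79 CPM (SD, n = 3) and 12.4 ± 2.81, a 2.63-fold difference (log2 fold change 1.40, SE 0.175, adjusted p = 0.000709). Hnrnpa3, a close relative with similar RNA binding, read 79.1, 86.5 and 66.6 CPM at E18 and 38.4, 45 and 30.2 CPM at P5, 2.04-fold higher at E18 without overlap (log2 fold change 1.03, SE 0.158, adjusted p = 0.00154). Hnrnpa2b1, which also carries mRNA along processes, read 289, 279 and 263 CPM at E18 and 173, 172 and 139 CPM at P5 (1.72-fold, log2 fold change 0.78, SE 0.106, adjusted p = 0.000948). These samples had separate ranges by age. Hnrnpa0, a single-exon gene that binds AU-rich mRNA, had the smallest difference of the 4 (log2 fold change 0.55, SE 0.143, adjusted p = 0.0149).

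The levels of Hnrnpa1 and Hnrnpa3 rest on sequence that recurs elsewhere in the genome. Of the windows of 100 bases in the Hnrnpa1 transcript (chr15:103240432-103246692, plus strand, 13 exon blocks), 42.2% were found letter for letter in transcripts of 11 other annotated genes, most of them processed pseudogenes. The first 752 of its 1119 coding bases are those of Gm10052, an intronless copy at chr9:123689233-123690192 on the minus strand. Of the 11 genes, 2 had a row in the count table, with 1372 counts over all libraries against 12944 for Hnrnpa1. Hnrnpa3 (chr2:75659261-75669407, plus strand) shared 27.5% of its windows with 25 genes. Hnrnpa2b1 (chr6:51460932-51469894, minus strand) shared none.

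Of the hnRNP F/H genes, whose products bind runs of G, 3 of 4 were called higher at E18. Hnrnph1 was among the most abundant members, with 747, 807 and 688 CPM at E18 and 451, 413 and 331 CPM at P5. The ages were far apart (1.87-fold, log2 fold change 0.91, SE 0.125, adjusted p = 0.000975), with means of 748 ± 59.6 and 399 ± 61.4 CPM (SD, n = 3). Hnrnph3, the least abundant member, read 13.3, 14.7 and 9.86 CPM at E18 and 5.63, 6.21 and 4.58 CPM at P5, 2.30-fold higher at E18 (log2 fold change 1.2, SE 0.19, adjusted p = 0.00171). Hnrnpf differed by 0.34 on the log2 scale (SE 0.0832, adjusted p = 0.0113), and 56.3% of its windows recur in 10 other genes. Hnrnph2, an X-linked near-copy of Hnrnph1, read 141, 155 and 147 CPM at E18 and 135, 126 and 120.1 CPM at P5, which did not pass the threshold (log2 fold change 0.22, SE 0.0871, adjusted p = 0.0697). The ratio of Hnrnph1 to Hnrnph2 counts was 5.30, 5.19 and 4.68 in the E18 libraries. It was 3.35, 3.28 and 2.76 in the P5 libraries, with no overlap. Ratios of other relatives were also computed. Hnrnpdl to Hnrnpd was apart by age, and Hnrnpl to Hnrnpll narrowly so (3.17 to 3.31 at E18, 2.59 to 3.15 at P5). Hnrnpa2b1 to Hnrnpa0 overlapped (1.40 to 1.59 at E18, 1.09 to 1.42 at P5). Hnrnpu to Hnrnpul2 overlapped too (3.80 to 4.16 at E18, 3.27 to 4.20 at P5).

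Hnrnpab, Hnrnpd and Hnrnpdl make up the D group, whose products bind AU-rich elements and act on mRNA stability. Hnrnpab read 460.0, 502 and 417 CPM at E18 and 308, 316 and 254 CPM at P5, with the ages apart (log2 fold change 0.65, SE 0.113, adjusted p = 0.00259). Its neighbour Phykpl, with which it shares 23.3% of its windows, had 8812 counts over the 6 libraries against 214535 for Hnrnpab and was also higher at E18 (log2 fold change 1.29, adjusted p = 0.000662). Hnrnpdl was also called higher at E18 (log2 fold change 0.57, SE 0.154, adjusted p = 0.0177). Hnrnpd, its neighbour on chromosome 5, read 85.3, 90.1 and 85.8 CPM at E18 and 74.5, 81.4 and 77.9 CPM at P5 and did not pass the threshold (log2 fold change 0.16, SE 0.0834, adjusted p = 0.151).

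The remaining hnRNP genes were called higher at E18, with the exception of Hnrnpll. Hnrnpk, which binds runs of C and has roles from transcription to translation, had the highest mean count of all members, with 795, 880.5 and 798 CPM at E18 and 649, 564 and 540.3 CPM at P5 (log2 fold change 0.50, SE 0.0966, adjusted p = 0.00429). Hnrnpu, a nuclear scaffold protein, read 513, 494 and 506 CPM at E18 and 397, 325 and 357 CPM at P5 (log2 fold change 0.49, SE 0.0935, adjusted p = 0.00403). Both genes had separate ranges by age. Hnrnpr, whose product binds mRNA in motor axons, read 237, 258 and 241 CPM at E18 and 156, 189 and 150.0 CPM at P5 (log2 fold change 0.57, SE 0.106, adjusted p = 0.00352). Hnrnpul2, a relative of Hnrnpu, read 124, 130.1 and 126 CPM at E18 and 94.4, 99.5 and 96.1 CPM at P5, a small difference with little spread (log2 fold change 0.39, SE 0.0795, adjusted p = 0.00535).

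Hnrnpc, which covers uridine tracts and keeps cryptic exons out of mRNA, had a log2 fold change of 0.67 (SE 0.143, adjusted p = 0.00627). Hnrnpm, Hnrnpul1 and Hnrnpl had log2 fold changes of 0.48, 0.42 and 0.32. Hnrnpm shares 29.7% of its exon bases with March2 on the same strand, which was lower at E18 (log2 fold change -0.58, adjusted p = 0.00354). Counts summed over all libraries were 41788 for March2 and 74056 for Hnrnpm. Hnrnpl and Hnrnpll both bind CA-rich sequence. Hnrnpll read 83.7, 89.3 and 86.0 CPM at E18 and 86.6, 82.6 and 73.4 CPM at P5, and the ages overlapped (log2 fold change 0.09, SE 0.0929, adjusted p = 0.438).

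**Figure D2:**
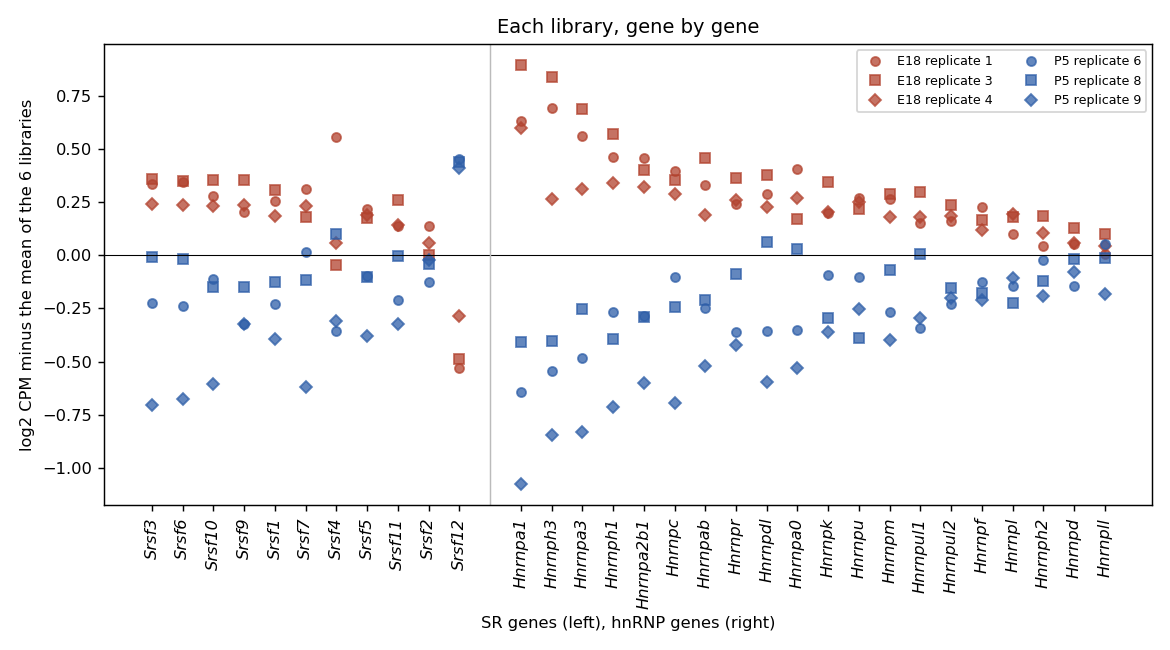
Log2 CPM of each member in each of the 6 libraries, minus that member's mean over the 6 (vertical axis), with SR genes left and hnRNP genes right, each ordered by fold change; colour marks age and symbol marks the replicate. E18 points lie above P5 points for 28 of 31 members, Srsf12 is inverted, and P5 replicate 9 is the lowest point for 22 members.

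Libraries of 1 age were not alike. P5 replicate 9 was the lowest of all 6 libraries for 22 of 31 members and the lowest of the P5 libraries for 23, where 33.1% of all genes tested had their lowest P5 value in that library. Its members lay below the mean of the other P5 libraries for 29 of 31, with a median log2 difference of -0.22. The same comparison was not computed over all genes tested. E18 replicate 3 was the highest of the 6 libraries, and of the E18 libraries, for 20 members, where 31.4% of all genes tested had their highest E18 value in that library. With P5 replicate 9 left out, the median log2 fold change was 0.32 for SR genes and 0.44 for hnRNP genes. In that fit 7 SR and 16 hnRNP genes were called higher. Over all genes tested, 2474 of 16683 were called higher in it, against 3426 of 16449 with all libraries. With E18 replicate 3 left out, 5 SR and 13 hnRNP genes were called higher, while calls over all genes tested went from 7135 to 4575.

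Markers of other cells were unevenly spread over the E18 libraries. The sums of dividing-cell and progenitor markers were highest in replicate 1. Most amacrine markers, among them Tfap2b and Chat, were highest in replicate 3, as was the progenitor gene Sox2. The exceptions among amacrine markers were Calb2, Slc6a9 and Dlx1, and Calb2 was lowest in replicate 3. Amacrine markers summed to 959, 959 and 872 CPM in E18 replicates 1, 3 and 4. A link between these markers and the members was not tested. The progenitor gene Fgf15 read 21.2, 4.27 and 0.884 CPM in E18 replicates 1, 3 and 4 and at most 0.316 CPM at P5. Against the P5 mean of each gene, the median log2 difference of the members was 0.52 in E18 replicate 1, 0.53 in replicate 3 and 0.47 in replicate 4. In each, 30 of 31 members were above that mean, and this was not computed over all genes tested. The summed dividing-cell markers in replicate 4, at 96 CPM, were close to the highest P5 library, at 92.7 CPM. With E18 replicate 1 left out, 6 SR and 15 hnRNP genes were called higher, and the medians were 0.42 and 0.51. Over all genes tested, 2366 of 16741 were called higher in that fit, against 3426 of 16449 with all libraries. With both replicates 1 and 3 left out, an alternative added after seeing the data, the lone E18 replicate 4 was fitted against the 3 P5 libraries and assumed to vary as they do. In that fit 30 members had positive log2 fold changes and the medians were 0.44 for SR and 0.51 for hnRNP genes. Only Hnrnpa1, Hnrnph1 and Hnrnpa2b1 were then called higher, and Srsf12 was called lower, while calls over all genes came to 1633.

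In sum over members, SR genes took 2593 ± 61.9 CPM (SD, n = 3) at E18 and 1951 ± 251 at P5, and hnRNP genes took 5091 ± 211 and 3438 ± 291 CPM. Members made up 0.787%, 0.777% and 0.721% of the counts in E18 replicates 1, 3 and 4 and 0.569%, 0.579% and 0.483% in P5 replicates 6, 8 and 9. The ages did not overlap in this share. The ratio of hnRNP to SR counts within a library was 1.93, 2.02 and 1.94 at E18 and 1.78, 1.67 and 1.86 at P5, so that each E18 library was above each P5 library by a narrow margin.

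The makeup of each pool was described by the share of a member in its family's counts within a library, which does not depend on the scaling between libraries. Of the SR genes, 3 had shares that were higher in every E18 library (Srsf3, Srsf6 and Srsf10), 2 had shares that were lower (Srsf2 and Srsf12) and 6 overlapped. Srsf12 made up 2.33%, 2.41% and 2.89% of SR counts at E18 and 5.97%, 5.59% and 7.06% at P5. Srsf2 went from a mean of 7.44% at E18 to 9.16% at P5, and Srsf3 from 16.5% to 14.4%. Of the hnRNP genes, 5 had higher shares in every E18 library (Hnrnph1, Hnrnpa2b1, Hnrnpa3, Hnrnpa1 and Hnrnph3), 6 had lower shares (Hnrnpl, Hnrnph2, Hnrnpul2, Hnrnpll, Hnrnpd and Hnrnpf) and 9 overlapped. Hnrnph1 made up 14.7% of hnRNP counts at E18 and 11.6% at P5. Shares within a pool are bound to each other, so that a rise in 1 member lowers the rest. Full separation of 3 against 3 libraries was common. In CPM, which is not the same measure, 27.6% of all genes tested had every E18 sample above every P5 sample and 28.5% below. Shares within other pools of genes were not computed.

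**Figure D3:**
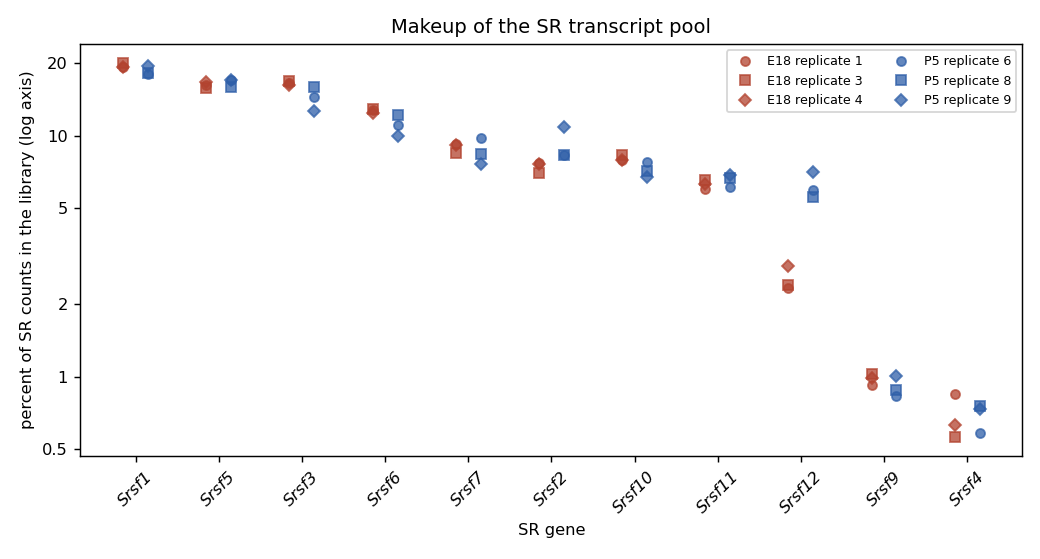
Share of each SR gene in the SR counts of a library, in percent on a log axis, for the 3 E18 libraries (left points of each gene) and the 3 P5 libraries (right points). Srsf12 shows the widest gap between ages, from 2.54% to 6.21% in the mean, while Srsf1, Srsf5 and Srsf11 overlap.

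Levels were compared between members as CPM per kilobase of annotated exon. On this scale the highest mean levels at E18 were 336 for Hnrnph1, 263 for Hnrnpk, 255 for Srsf5, 183 for Hnrnpab and 146 for Hnrnpa2b1. At P5 they were 196 for Srsf5, 187 for Hnrnpk, 179 for Hnrnph1, 117 for Hnrnpab and 104 for Hnrnpl. The means of the first 3 at P5 lay close together, with SDs over libraries of 21.0, 18.2 and 27.6. Within libraries, Srsf5 was above Hnrnph1 in each P5 library (208, 208 and 172 against 203, 186 and 149). Hnrnpk changed order with both of them between P5 libraries. At E18, Hnrnpk and Srsf5, with SDs of 15.4 and 3.56, also changed order between libraries. Srsf12 had a level of 22.4 at E18, place 24 of 31, and 40.8 at P5, place 17. Hnrnpa1 had a low level at both ages, 15.3 and 5.8, and Hnrnph3 the lowest, 5.70 and 2.47. For Hnrnpa1, 42.2% of windows recur in other genes and the treatment of multi-mapping reads is not stated, so its place among members is uncertain. The level of Hnrnpr, 11.4 at E18, is uncertain because its annotated exons include a transcript of 21452 bases.

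Over 20% of windows were shared with other genes in 9 members: Srsf4, Hnrnpf, Hnrnpa1, Srsf2, Hnrnpm, Hnrnpa3, Hnrnpk, Hnrnpab and Srsf3. Some of these share sequence with copies elsewhere in the genome (such as Hnrnpa1, Hnrnpa3 and Hnrnpf). Others share it with an annotated gene at the same locus (such as Srsf4, Hnrnpm and Hnrnpab). How the counting treated multi-mapping reads, overlap and strand is not stated, so the values of these 9 genes are uncertain. In 10 members no window was shared (Srsf6, Srsf7, Srsf9, Srsf11, Srsf12, Hnrnpa0, Hnrnpa2b1, Hnrnpu, Hnrnpul1 and Hnrnpll), and of these 8 were called higher at E18, 1 lower and 1 was not called.

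Genes that act with the members were read from 5 lists, whose counts stand against 20.8% of all genes tested that were called higher at E18, 22.5% called lower and a median log2 fold change of 0.00473. SR proteins are phosphorylated by SRPK kinases in the cytoplasm and CLK kinases in the nucleus, and transportins carry SR and hnRNP proteins into the nucleus. Of 11 kinases and importers, 6 were called higher at E18 and 1 lower, with a median log2 fold change of 0.36. Srpk3 read 5.36, 5.54 and 6.01 CPM at E18 and 1.67, 1.6 and 2.04 CPM at P5, a low level with the ages far apart (log2 fold change 1.67, SE 0.186, adjusted p = 0.00044). Clk3 read 103, 110.3 and 113 CPM at E18 and 70.6, 75.6 and 69.8 CPM at P5, also without overlap (log2 fold change 0.59, SE 0.086, adjusted p = 0.00124). Tnpo1, an importer of Hnrnpa1 protein, was called higher (log2 fold change 0.52, adjusted p = 0.0119), but not without E18 replicate 3 (adjusted p = 0.0513). Tnpo2, of the same list, had a log2 fold change of 0.0002 (SE 0.109, adjusted p = 0.9993), and its ages overlapped. Tnpo3, an importer of SR proteins, had a log2 fold change of 0.05 (SE 0.108, adjusted p = 0.757). Srpk2 was lower at E18 by a small amount (log2 fold change -0.24, SE 0.0851, adjusted p = 0.0491). That call was lost with no filter on low counts and with any 1 of 5 libraries left out (each but P5 replicate 8), at adjusted p values of 0.0692 to 0.208. The 6 higher calls fell to 2 without E18 replicate 3, while calls over all genes tested went from 7135 to 4575.

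Of 17 SR-related proteins, which carry an arginine and serine rich tail but fall outside the SR family proper or work beside it, 13 were called higher at E18 and none lower, with a median log2 fold change of 0.44. Tra2a, an activator of exons, read 181, 175 and 161 CPM at E18 and 101, 71.4 and 57.9 CPM at P5 (log2 fold change 1.17, SE 0.182, adjusted p = 0.00162). Srrm4, which drives inclusion of neuronal microexons, read 26.9, 32.8 and 20.6 CPM at E18 and 10.7, 14.1 and 11.2 CPM at P5 (log2 fold change 1.16, SE 0.185, adjusted p = 0.00183). Both genes had separate ranges by age.

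Of 15 other hnRNP-class proteins whose symbols do not carry the name, 10 were called higher at E18 and none lower, with a median log2 fold change of 0.42. Ptbp1 (hnRNP I), a repressor of neuronal exons that progenitors express, read 58.0, 49.9 and 43.4 CPM in E18 replicates 1, 3 and 4 and 21.2, 25.8 and 20.3 CPM at P5 (log2 fold change 1.17, SE 0.141, adjusted p = 0.000599). Its order over the E18 libraries was that of the summed dividing-cell markers given above, and a link between them was not tested. With E18 replicate 4 as the only E18 library, the log2 fold change of Ptbp1 was 0.96. Rbmx (hnRNP G), an X-linked splicing regulator, had means of 258 ± 10.9 CPM (SD, n = 3) at E18 and 142 ± 19.3 at P5 (log2 fold change 0.86, SE 0.11, adjusted p = 0.000778).

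Of 12 Sm and snRNP proteins, which are structural parts of the spliceosome, 7 were called higher at E18 and none lower, with a median log2 fold change of 0.36. Snrpa and Snrpg led them with log2 fold changes of 0.75 (SE 0.0975, adjusted p = 0.000806) and 0.75 (SE 0.14, adjusted p = 0.0037). Without E18 replicate 1 the count was 4, and without E18 replicate 3 it was 3. Calls over all genes tested were 5110 and 4575 in these fits, against 7135 with all libraries. Of 10 factors of nonsense-mediated decay, 3 were called higher at E18 and none lower, a share near the 20.8% of all genes tested, with a median log2 fold change of 0.27. Upf2, a core adaptor of the pathway, had a log2 fold change of 0.62 (SE 0.155, adjusted p = 0.013) and Smg8, a regulator of the Smg1 kinase, one of 0.61 (SE 0.106, adjusted p = 0.00257). That count was 1 without E18 replicate 3 or without P5 replicate 6, and 5 without P5 replicate 8. Calls over all genes tested were 4575, 5589 and 8796 in these fits.

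**Figure D4:**
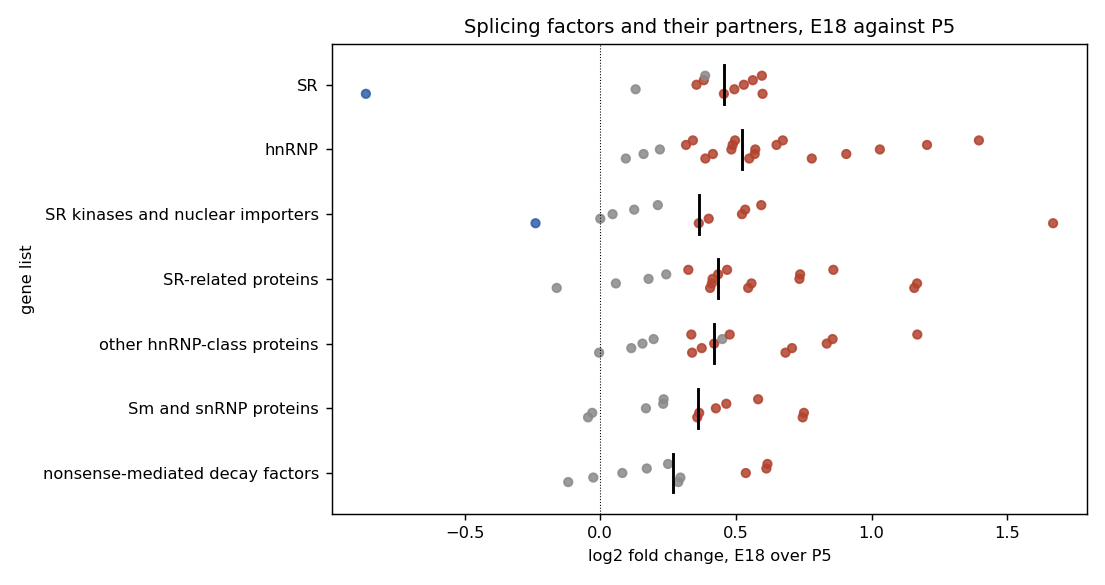
Log2 fold change of E18 over P5 for each gene (points) of the SR and hnRNP families and of the 5 partner lists, with red for genes called higher, blue for lower and grey for not called; the vertical bar is the median of the list. The medians run from 0.27 for nonsense-mediated decay factors to 0.52 for hnRNP genes, and 2 points are blue, Srsf12 and Srpk2.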

How the data were processed

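RNA-seq of RGCs from 3 E18 and 3 P5 samples was analysed. The sample labels give polyA RNA as the molecule, while the extract protocol and the study's methods name RiboZero Gold, a ribosomal RNA depletion, so that how far unspliced RNA was counted is unknown. Per the study's methods, reads were aligned to mm10 with STAR and counted on RefSeq genes with HT-seq, and the submitters' processing notes name CASAVA 1.8.2 and edgeR. The authors deposited raw counts per gene and sample, on which all values here rest. The normalized counts deposited by the authors are a signal scaled for library size, and they were not used. The deposited log2 fold changes and p-values belong to the authors' own comparison and were not used. One E18 column name carries the numbers 1, 2 and 5 and was taken as replicate 1. Whether these numbers mark a pool of preparations is not known. The strand setting is not given in the sources used here.

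Age was the only term in a quasi-likelihood fit (edgeR 4.0.16, R 4.3.3) of TMM-scaled counts, over the 16449 genes kept by filterByExpr, with Benjamini-Hochberg adjustment over all of them and a threshold of 0.05. The script was first tested on simulated data. CPM values use TMM-normalized library sizes. Standard errors were derived from the fitted model, as the absolute log2 fold change divided by the square root of the F statistic. Exon lengths and shared windows of 100 bases came from GENCODE vM21, and promoters from RefSeq (GRCm38.p6). Alternatives were other scalings, DESeq2 1.42.0, other edgeR tests, other filters, leaving out each library and, added after seeing the data, E18 replicate 4 alone. Members and lists were chosen with earlier results of these data known. Genes described in full were the 5 SR and 10 hnRNP genes with the smallest adjusted p, members lower at E18 and the 5 with the highest mean levels. The 5 members that were not called were also given in every sample, a choice made after their values were seen. Of each list, up to 2 genes with the largest called differences in each direction were named. Tnpo1, Tnpo2 and Tnpo3, and the genes overlapping members, were named for their role or position after their values were seen.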

Additional observations from a re-analysis of the deposited data

How the results depend on the processing

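Each member was refitted under 14 alternatives, of which 6 left out a library. All 31 members kept their direction, and 23 also kept their side of the threshold, under every one. Calls were lost only where a library was left out, in 19 fits that concerned Srsf3, Srsf7, Srsf11, Hnrnpa0, Hnrnpdl, Hnrnpf, Hnrnpl and Hnrnpul1. Scaling, filters, DESeq2 and the other edgeR tests left the counts of 8 SR and 17 hnRNP genes higher at E18 as they were. With 1 library left out, SR genes called higher were 5 to 8. Kinases and importers called higher were 2 to 6, and those called lower 0 to 1, and 0 with no filter on low counts. Sm and snRNP proteins called higher were 3 to 9 and nonsense-mediated decay factors 1 to 5. With 1 library left out, calls over all genes tested also moved. They ran from 4575 without E18 replicate 3 to 8796 without P5 replicate 8, against 7135 with all libraries. Tnpo3 ran from a log2 fold change of -0.055 without P5 replicate 8 to 0.142 without P5 replicate 6. No scaling moved the median of all genes by more than 0.1 on the log2 scale. No paired analysis was possible because the replicate numbers are not shared between ages. With E18 replicate 4 as the only E18 library, an alternative added after seeing the data, 0 SR and 3 hnRNP genes were called higher, as were 2 kinases and importers (0 lower), 2 SR-related proteins, 4 other hnRNP-class proteins, 0 Sm and snRNP proteins and 0 nonsense-mediated decay factors. That fit tests 1 library against 3 and called 1633 genes in all. Of the 5 members not called with all libraries, Srsf2, Hnrnpd, Hnrnph2 and Hnrnpll had small log2 fold changes (0.09 to 0.22), and Srsf4 had the largest standard error of all members, 0.19.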
